A study of Mus musculus with 12 samples.

Results

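Golgi coiled-coil tethers are long rod-like proteins, many of them called golgins, that stand on Golgi membranes and capture incoming vesicles. They are anchored at the membrane near their carboxyl end, often through a small GTPase, and reach into the cytoplasm with the rest of the rod. In beta cells, proinsulin passes through the Golgi before it is packed into secretory granules. The genes described here are 9 of the 12643 measured in mouse MIN6 cells: Uso1, Golga2, Golgb1, Trip11, Golga3, Golga1, Golga4, Gcc1 and Gcc2. They were chosen by name as Golgi tethers and selected on 2 measured values in view, the ratio of IP to total RNA under each siRNA and the transcript length, so that ratio is given here as a description, with its error, and no test of it is reported. All 9 were measured.

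MIN6 is a line from a mouse insulinoma and a model of pancreatic beta cells. Cells at passage 29 were nucleofected either with an siRNA against Pdx1, which encodes a homeodomain transcription factor of beta cells, or with the control siRNA called NT, and were collected after 72 h. Translating ribosome affinity purification (TRAP) gave RNA bound to purified ribosomes (IP) beside total RNA, through a tagged ribosomal protein that the labels do not name. The 4 groups were Pdx1 siRNA IP, Pdx1 siRNA total, NT siRNA IP and NT siRNA total, with 3 libraries each, all from the same line and passage. The labels do not say that replicates were separate cultures, so each p-value reflects how far these libraries spread and no more, and that spread may be technical.

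The libraries held 29430690 to 45806807 counts over the 12643 genes, and replicates correlated at r = 0.985 to 0.998 on the log scale. Levels are given as CPM, counts set to a common library total, with totals scaled by TMM, a normalization that assumes most genes do not differ. At an adjusted p under 0.05, the edgeR test called 9490 of 12643 genes between IP and total RNA with Pdx1 siRNA. With NT siRNA it called 8810. Between the siRNAs it called 53.0% of genes in total RNA and 59.7% in IP RNA. The assumption may thus not hold, and small log2 values depend on the scaling. Pdx1 averaged 51.0 ± 5.54 CPM in Pdx1 siRNA total RNA and 117 ± 6.89 CPM in NT siRNA total RNA (SD, n = 3 each), 2.29-fold lower with its siRNA. All 11 listed beta-cell markers were measured, whereas 0 of 6 markers of blood, vessel, stromal, duct and acinar cells were in the tables used here. At Rpl32l, a near-identical copy of a ribosomal protein gene, NT siRNA IP replicate 3 stood apart from the other NT siRNA IP libraries. Rpl32l held 22 to 37 counts in the Pdx1 siRNA IP libraries, 29 in NT siRNA IP replicate 3, and 1726 and 1260 in NT siRNA IP replicates 1 and 2. The total libraries held 699 to 1131 counts. Whether other genes with copies divide the libraries in the same way is not given here. In a search of annotated GENCODE M21 transcripts, a match to another gene was reported for 0% of each of the 9 tether transcripts. The search left out matches scoring far below the match of a transcript to itself. Short stretches could thus be missed, and 1.1% of Golgb1 exon bases are shared with another annotated gene. The rest of the genome was not searched for copies of the tether transcripts.

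The start codon is where a ribosome begins to read an mRNA, and its surroundings are shown because the measurement is of ribosome-bound mRNA. The lines below run from 12 bases before the ATG, in capitals, to 12 bases after it, in the spliced GENCODE M21 transcripts of GRCm38, for the members whose model reaches that far. Golga2 and Golgb1 are named only.
Uso1: ctgagcgacaagATGaatttcctccgt
Trip11: ccacccgcagcgATGtcgtcctggctc
Golga3: gctgccctgaccATGgatggagcatca
Golga1: cacacagcaaaaATGtttgcaaaacta
Golga4: cctcgccgcgccATGttcaagaagctg
Gcc1: gccagaacccccATGgagaagtttggg
Gcc2: gtcgcagccgcgATGgaggattctgct
The ATG lies at chr5:92138098-92138100 for Uso1 and chr5:110181778-110181780 for Golga3. It lies at chr9:118506486-118506488 for Golga4 and chr10:58255566-58255568 for Gcc2, and all 4 are on the plus strand. On the minus strand are Trip11 (chr12:101912826-101912828), Golga1 (chr2:39063374-39063376) and Gcc1 (chr6:28421314-28421316). A favourable vertebrate start has a purine 3 bases before the ATG and a G just after it. The purine was present in 6 of these 7 members, and in 86.6% of 11737 genes with an annotated start. Both features were present in Golga3 and Gcc2, 2 of 7, and in 46.3% of all these genes. Genes with both features had a median log2 IP to total ratio of −0.01 with Pdx1 siRNA and 0.00 with NT siRNA, and genes with neither had −0.01 and −0.03, so the medians of these classes were close to each other. Of the 2 members with both features, Gcc2 was at −2.20 with Pdx1 siRNA and −1.92 with NT siRNA, and Golga3 at −0.70 and −0.66. The 5 members with 1 feature ran from −3.06 (Trip11) to −0.15 (Gcc1) with Pdx1 siRNA. With NT siRNA these ran from −2.81 (Trip11) to −0.18 (Gcc1). Whether the start context bears on the ratio was not tested.

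The members are long mRNAs. Their median transcript length was 6.55 kb, against 3.03 kb over 12030 coding genes with a length, and their median GC content was 46.1%, against 50.5%. Golgb1 (chromosome 16, 36875093 to 36933085, plus strand, build mm10) is the longest at 10.85 kb, of which 9.71 kb is coding. Trip11 (chromosome 12, 101834045 to 101913171, minus strand) has 9.87 kb with 5.93 kb coding, and Golga3 (chromosome 5, 110176857 to 110226470, plus strand) has 8.13 kb with 4.34 kb coding. Golga4 (chromosome 9, 118506196 to 118582519, plus strand) has 7.58 kb with 6.71 kb coding, and Gcc2 (chromosome 10, 58255408 to 58305599, plus strand) has 6.55 kb with 5.04 kb coding. The shorter members differ in how much of the transcript is coding. Golga1 (chromosome 2, 39016155 to 39065551, minus strand) has 2.27 of 4.87 kb coding, and Gcc1 (chromosome 6, 28416603 to 28421724, minus strand), a gene of 2 exons, has 2.33 of 4.65 kb. Golga2 (chromosome 2, 32288287 to 32307913, plus strand) has 3.08 of 4.37 kb coding, and Uso1 (chromosome 5, 92137909 to 92202800, plus strand) has 2.88 of 3.90 kb. Reads cannot be assigned by strand from the sources used here, and the exons shared with another annotated gene came to 1.1% of Golgb1 and 0.3% of Trip11.

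Per length, the members spanned a wide range of abundance in total RNA. Uso1 was at 127 CPM per kb in Pdx1 siRNA total RNA and 97.2 CPM per kb in NT siRNA total RNA, and Golga2 followed at 38.8 and 32.7 CPM per kb in the same groups. Golgb1 had 25.3 CPM per kb with Pdx1 siRNA and 16.5 with NT siRNA, and Golga4 had 21.6 and 19.4. The other 5 members lay between 2.73 (Trip11) and 8.31 CPM per kb (Golga3) in Pdx1 siRNA total RNA, and between 2.13 (Trip11) and 7.01 CPM per kb (Golga3) in NT siRNA total RNA. With NT siRNA, Golga3 and Golga1 (6.97 CPM per kb) differed by less than the spread of their libraries.

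The vesicle-docking members Uso1 and Golga2, on the entry side of the Golgi, had a narrow gap between IP and total RNA. Uso1, encoding the tether p115 that links vesicles from the endoplasmic reticulum to Golgi membranes, had 364, 363 and 385 CPM in Pdx1 siRNA IP and 451, 490 and 544 CPM in Pdx1 siRNA total RNA. With NT siRNA it had 334, 352 and 313 CPM in IP and 372, 387 and 378 CPM in total RNA. All IP libraries of Uso1 lay below all total libraries of the same siRNA, by less with NT siRNA than with Pdx1 siRNA. Golga2 encodes GM130, the cis-Golgi golgin to which p115 binds. It had 153, 137 and 171 CPM in Pdx1 siRNA IP, 151, 176 and 181 CPM in Pdx1 siRNA total, 123, 126 and 136 CPM in NT siRNA IP, and 143, 142 and 145 CPM in NT siRNA total RNA. Its IP and total libraries overlapped with Pdx1 siRNA and were apart with NT siRNA.

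Golgb1 and Trip11 showed a wide gap between the fractions. Golgb1 encodes giantin, a membrane-spanning golgin of the cisternal rims that also binds p115. It had 41.4, 38.8 and 50.4 CPM in Pdx1 siRNA IP and 211, 294 and 319 CPM in Pdx1 siRNA total RNA. With NT siRNA it had 33.5, 31.1 and 34.5 CPM in IP and 166, 195 and 176 CPM in total RNA. Trip11 encodes the cis-Golgi golgin that holds on to small, highly curved vesicles. It had 3.31, 3.38 and 3.08 CPM in Pdx1 siRNA IP and 19.8, 30.4 and 30.8 CPM in Pdx1 siRNA total RNA. With NT siRNA it had 3.05, 2.92 and 3.06 CPM in IP and 18.5, 24.4 and 20.3 CPM in total RNA. Every IP library of either gene was several-fold below every total library. The Trip11 values rest on few reads in IP RNA, 79 to 122 counts with Pdx1 siRNA and 98 to 115 counts with NT siRNA.

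Golga3, encoding golgin-160, and the members of the trans-Golgi side differed widely among themselves in the gap between the fractions. Golga3 had 40.2 to 43.9 CPM in Pdx1 siRNA IP, 64.2 to 71.8 CPM in Pdx1 siRNA total, 35.8 to 36.5 CPM in NT siRNA IP and 55.2 to 58.5 CPM in NT siRNA total RNA. Golga1, Golga4, Gcc1 and Gcc2 encode the golgins that carry a GRIP domain, a domain of golgins on the trans-Golgi. Golga4 had 52.4, 54.4 and 52.5 CPM in Pdx1 siRNA IP, 139, 176 and 176 CPM in Pdx1 siRNA total, 52.4, 56.2 and 55.5 CPM in NT siRNA IP, and 140, 154 and 146 CPM in NT siRNA total RNA. Gcc2 had 9.31, 8.83 and 8.16 CPM in Pdx1 siRNA IP, 38.4, 41.6 and 40.2 CPM in Pdx1 siRNA total, 8.74, 9.88 and 9.79 CPM in NT siRNA IP, and 33.3, 38.6 and 35.6 CPM in NT siRNA total RNA. In both genes the fractions were well apart, although both encode GRIP golgins like Gcc1, whose fractions lay close together. Gcc1 had 22.1 to 22.9 CPM in Pdx1 siRNA IP and 22.5 to 26.6 CPM in Pdx1 siRNA total RNA, and 18.0 to 19.6 CPM in NT siRNA IP and 20.4 to 22.0 CPM in NT siRNA total RNA. Golga1 had 19.1 to 20.1 CPM in Pdx1 siRNA IP, 33.7 to 35.3 CPM in Pdx1 siRNA total, 18.5 to 20.1 CPM in NT siRNA IP and 33.6 to 34.3 CPM in NT siRNA total RNA.

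**Figure D1:**
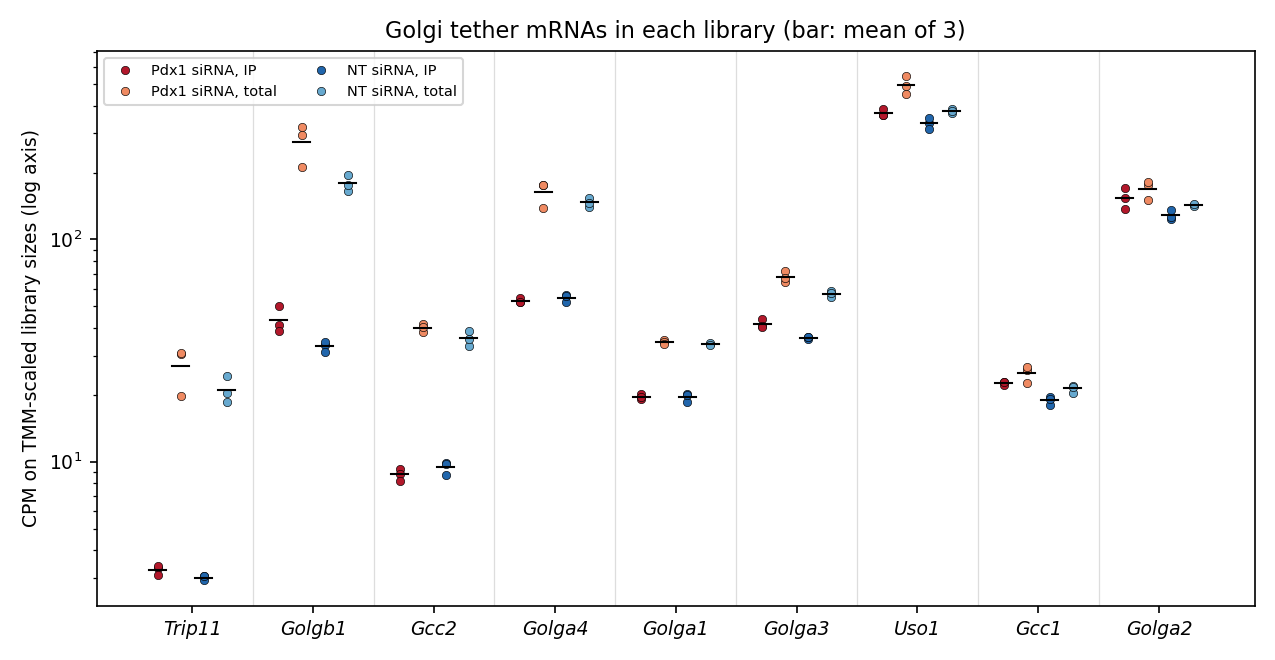
CPM of each tether gene in each of the 12 libraries (log axis, bars are means of 3 libraries), with Pdx1 siRNA left of NT siRNA and IP left of total RNA. Trip11 and Golgb1 have the widest gap between IP and total RNA, while Gcc1 and Golga2 have nearly equal levels in both.

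As log2 ratios of IP to total RNA from the edgeR fit, the members ran from −3.06 to −0.14 with Pdx1 siRNA and from −2.81 to −0.16 with NT siRNA. A ratio of 0 means the same share of scaled counts in both fractions, not that all copies are on ribosomes. Trip11 was at −3.06 (SE 0.16) with Pdx1 siRNA and −2.81 (SE 0.16) with NT siRNA, which is 8.31-fold and 7.01-fold lower in IP. Golgb1 was at −2.66 with Pdx1 siRNA and −2.44 with NT siRNA (SE 0.14 each), Gcc2 at −2.20 and −1.92 (SE 0.08 each) and Golga4 at −1.63 and −1.42 (SE 0.09 each). A middle pair, Golga1 (−0.82 with Pdx1 siRNA, −0.80 with NT siRNA) and Golga3 (−0.70 and −0.66), came next. Uso1 was at −0.42 with Pdx1 siRNA and closer to 0, at −0.19, with NT siRNA (SE 0.08 each). Gcc1 (−0.15 and −0.18) and Golga2 (−0.14 and −0.16) were close to 0. In this order Trip11 and Golgb1 lay within 2 combined SE of each other with either siRNA, as did Golga1 and Golga3, and Gcc1 and Golga2. The steps between Golgb1, Gcc2, Golga4 and Golga1, and from Golga3 to Uso1, were larger than that with both siRNAs. The step from Uso1 to Gcc1 was larger with Pdx1 siRNA (0.27, combined SE 0.11) and not with NT siRNA (0.01).

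The IP libraries lay wholly below the total libraries for 7 members with Pdx1 siRNA (37.9% of all genes) and for 9 with NT siRNA (40.2%). A log2 ratio of −1 or lower was found for the same 4 members with either siRNA, Trip11, Golgb1, Gcc2 and Golga4. That size was reached by 10.4% of all genes with Pdx1 siRNA and by 7.32% with NT siRNA. The median over the 9 members was −0.82 with Pdx1 siRNA and −0.80 with NT siRNA, beside −0.02 over all genes in both.

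The ratio was related to transcript length over all coding genes. Across 12030 genes, Pearson r between log2 length and the log2 ratio was −0.60 with Pdx1 siRNA and −0.64 with NT siRNA. These genes share the same libraries. Among the 9 members r was −0.84 and −0.86. The members were selected with both of these values in view, so their r is a description and no evidence of a stronger relation. Set against a smooth trend of the ratio on length, the members formed a graded series, with 4 of them well below the trend. The distance from the trend, in log2 units, was −2.15 with Pdx1 siRNA and −2.01 with NT siRNA for Trip11, −1.69 and −1.59 for Golgb1, −1.54 and −1.36 for Gcc2, and −0.88 and −0.77 for Golga4. Golga3, though longer than Gcc2 and Golga4, was on the trend at 0.09 and 0.03. Golga1 was at −0.39 and −0.43, and Uso1 at −0.17 and 0.03. Golga2 (0.19 and 0.13) and Gcc1 (0.24 and 0.16) were slightly above the trend.

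**Figure D2:**
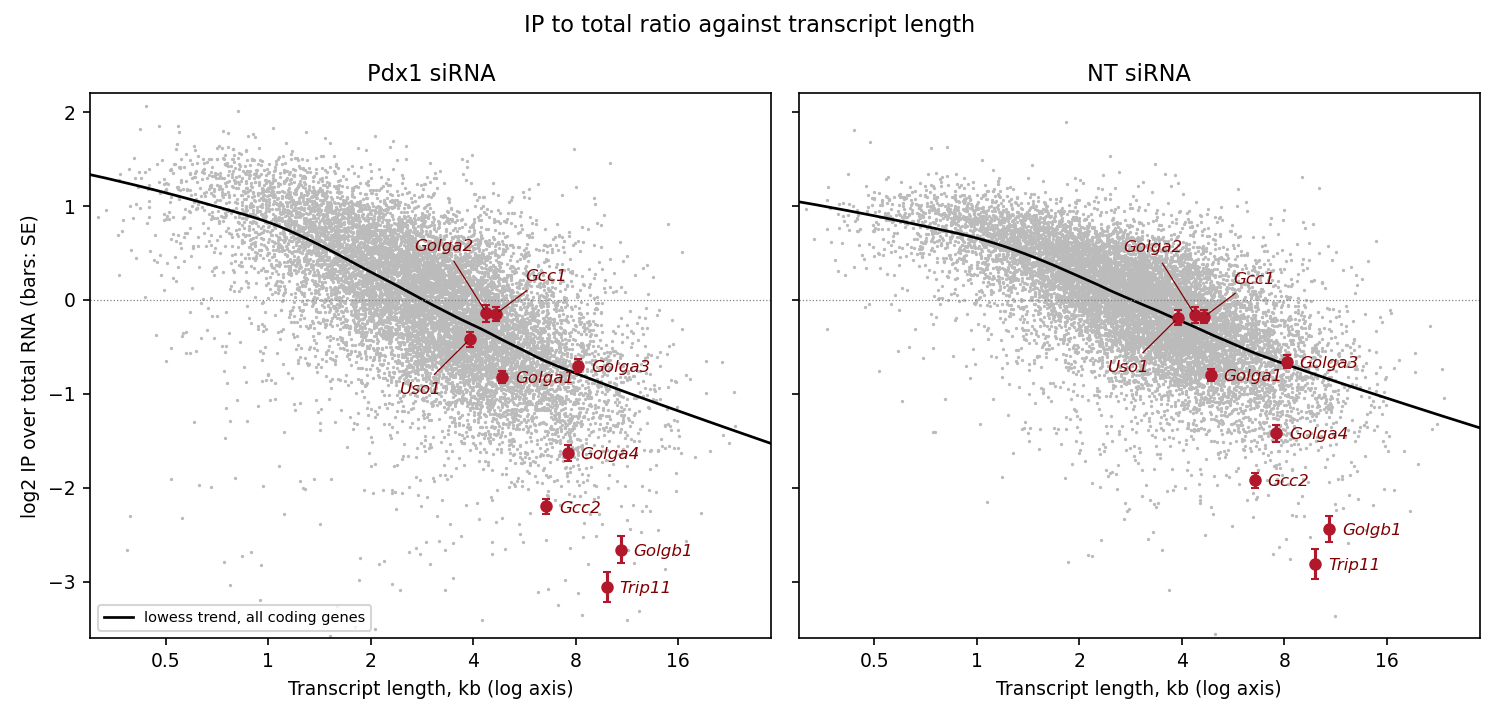
Log2 ratio of IP to total RNA against transcript length (log axis) with Pdx1 siRNA (left) and NT siRNA (right), for coding genes (grey points), their smooth trend (line) and the tethers (red, bars are SE); 15 and 4 genes of 12030 lie outside the axes. Trip11, Golgb1, Gcc2 and Golga4 lie below the trend, at −2.15 to −0.88 with Pdx1 siRNA, while Golga3 lies on it.

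Against genes of like length the same 4 members stood low. Of the 599 coding genes of 8 kb or more, whose median ratio was −0.92 with Pdx1 siRNA and −0.82 with NT siRNA, 4 and 1 had a lower ratio than Trip11, and 9 and 7 a lower one than Golgb1. Golga3, in the same class, had 377 genes below it with Pdx1 siRNA and 361 with NT siRNA. Among 882 genes of 6 to 8 kb, 6 and 13 were below Gcc2, and 53 and 61 below Golga4. By coding length, the 497 genes with 5 kb or more had a median ratio of −1.09 with Pdx1 siRNA and −0.93 with NT siRNA, and they include Trip11, Golgb1, Golga4 and Gcc2, the 4 members of lowest ratio. In that class 2 and 1 genes were below Trip11, 5 and 4 below Golgb1, 20 and 21 below Gcc2, and 62 and 65 below Golga4. The other members did not stand as low among genes of like coding length. The share of the class below them was 84.0% and 83.6% for Golga2, and 72.4% and 67.4% for Gcc1. It was 64.6% and 59.3% for Golga3, 53.7% and 66.5% for Uso1, and 21.8% and 16.3% for Golga1. Each of these positions was known in outline when the genes were listed and supports nothing further.

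Other gene lists were set beside the members. The 26 other long coiled-coil proteins, most of them of the centrosome, kinetochore, nucleus or cytoskeleton, all had a ratio below 0, with a median of −1.32 with Pdx1 siRNA and −1.04 with NT siRNA. The 17 other golgins and Golgi structure proteins had medians of −0.20 and −0.16, and the 29 subunits of multisubunit tethers such as COG, GARP and TRAPP had −0.45 and −0.32. Golgi GTPases and their regulators (24 genes, 0.19 and 0.13), Golgi SNAREs (15 genes, 0.42 and 0.20) and Golgi glycosylation enzymes (31 of 32 measured, 0.21 and 0.16) had medians above 0. These list medians were not adjusted for transcript length, to which the ratio was related, so they do not compare functional classes alone. The 4 measured of 5 listed nuclear RNAs, which are not read by ribosomes, had a median of −1.92 with Pdx1 siRNA and −2.13 with NT siRNA. The nuclear RNAs ranged from −2.42 to −0.65 with Pdx1 siRNA and from −2.76 to −1.05 with NT siRNA, and Trip11, Golgb1, Gcc2 and Golga4 were within or below that range with both siRNAs. Whether part of the total RNA of these genes was nuclear was not tested.

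**Figure D3:**
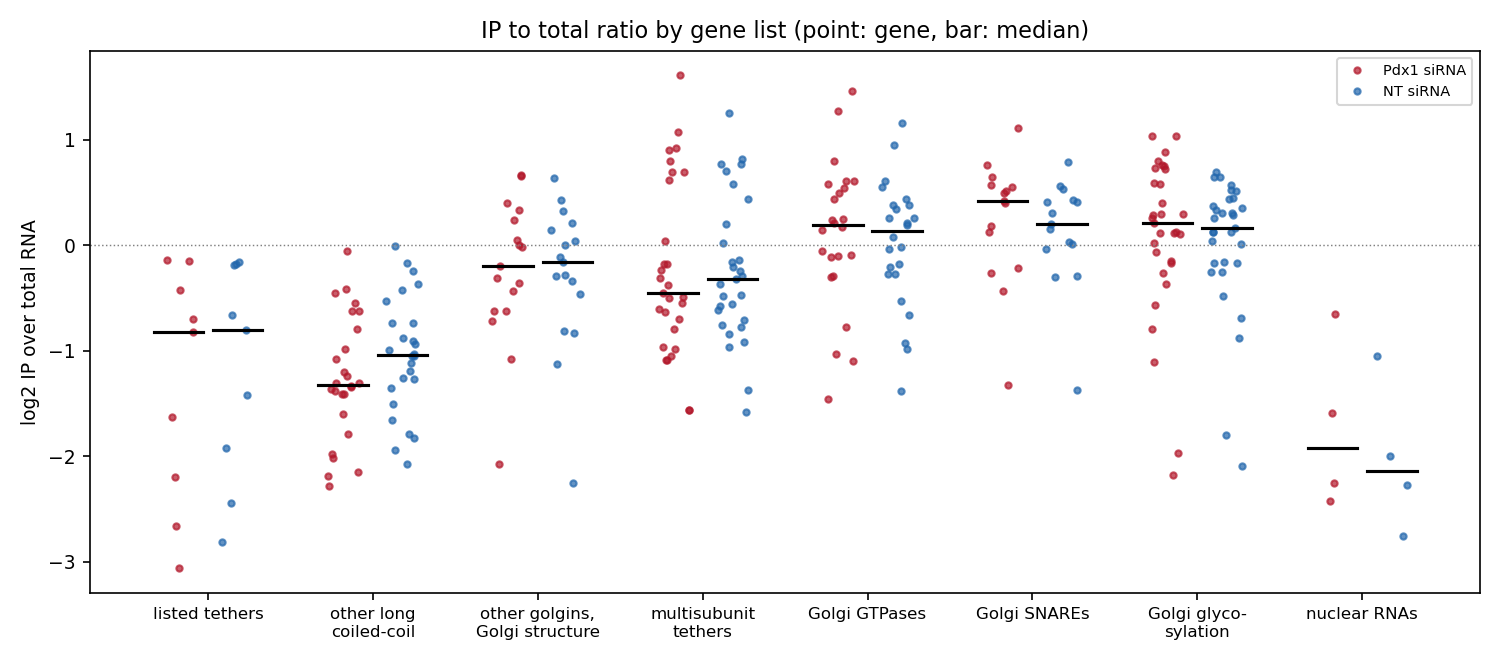
Log2 ratio of IP to total RNA for each gene (points) of the tethers and of 7 other lists, with Pdx1 siRNA left of NT siRNA and medians as bars. The tethers (medians −0.82 and −0.80) spread from about 0 to the lowest values drawn, and the other long coiled-coil proteins have medians of −1.32 and −1.04.

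Several tether mRNAs rose in total RNA with Pdx1 siRNA, Golgb1 and Uso1 by the largest called amounts. With p-values adjusted over all genes, edgeR called 6 of 9 members higher and 0 lower, where 23.8% of all genes were called higher, 29.2% lower and 53.0% in either direction. The members' median log2 fold change was 0.24, beside −0.04 over all genes. Golgb1, encoding giantin, averaged 275 ± 56.5 CPM with Pdx1 siRNA and 179 ± 14.6 CPM with NT siRNA (SD, n = 3 each), a log2 fold change of 0.62 (SE 0.13, adjusted p = 0.00102, edgeR). Uso1 averaged 495 ± 46.7 CPM with Pdx1 siRNA and 379 ± 7.85 CPM with NT siRNA, a log2 fold change of 0.38 (SE 0.08, adjusted p = 0.0011, edgeR). Golga3 averaged 67.6 ± 3.88 CPM with Pdx1 siRNA and 57.0 ± 1.68 CPM with NT siRNA (0.25, SE 0.07, adjusted p = 0.00536, edgeR). The other 3 called members were Trip11 (0.36, SE 0.13, adjusted p = 0.0332), Golga2 (0.24, SE 0.09, adjusted p = 0.0336) and Gcc1 (0.22, SE 0.07, adjusted p = 0.0179), by edgeR. Libraries did not overlap for 5 members, Golgb1, Uso1, Golga3, Golga2 and Gcc1, as for 26.1% of all genes in this direction, and those of Trip11 did overlap. Gcc2 (0.16, SE 0.07, adjusted p = 0.0792), Golga4 (0.16, SE 0.09, adjusted p = 0.138) and Golga1 (0.03, SE 0.06, adjusted p = 0.742) did not pass the edgeR test.

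In each total RNA group 1 library stood below the others for most members. Pdx1 siRNA total replicate 1 was the lowest of its group for 8 of 9 members, all but Golga1, and NT siRNA total replicate 1 for 7 of 9, all but Golga1 and Golga2. In Golgb1 Pdx1 siRNA total replicate 1 held 211 CPM beside 294 and 319 CPM, in Trip11 19.8 CPM beside 30.4 and 30.8 CPM, and in Golga4 139 CPM beside 176 CPM in each of the other libraries. The nuclear RNAs did not move together there. Malat1 and Neat1 were highest in replicate 1 of both groups, with 591 CPM of Malat1 beside 464 and 519 CPM with Pdx1 siRNA, and 363 beside 290 and 291 CPM with NT siRNA. Meg3 was highest in replicate 3 of both groups, and Kcnq1ot1 was within 2.31 to 2.55 CPM in the Pdx1 siRNA total and 4.16 to 5.15 CPM in the NT siRNA total libraries. What sets these libraries apart was not tested. Without Pdx1 siRNA total replicate 1, 7 members were called, Golga4 among them (0.26, adjusted p = 0.00526, edgeR). Without Pdx1 siRNA total replicate 2 or 3, the call was kept by 3 members, Golga3, Golgb1 and Uso1, and ended for Trip11 (adjusted p = 0.151 and 0.156), Golga2 (adjusted p = 0.1 and 0.121) and Gcc1 (adjusted p = 0.0644 and 0.0815, all edgeR). The Trip11 call also ended without NT siRNA total replicate 1 (adjusted p = 0.0975) or 3 (adjusted p = 0.0688, edgeR).

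In IP RNA 4 members rose with Pdx1 siRNA and 0 fell, where edgeR called 29.2% of all genes higher, 30.4% lower and 59.7% in either direction. These were Golgb1 with 43.5 ± 6.12 CPM with Pdx1 siRNA and 33.0 ± 1.77 CPM with NT siRNA (SD, n = 3 each; log2 fold change 0.40, SE 0.14, adjusted p = 0.0193, edgeR), and Gcc1 with 22.6 ± 0.426 and 18.9 ± 0.87 CPM (0.26, SE 0.08, adjusted p = 0.00879, edgeR). Golga2 (0.26, SE 0.09, adjusted p = 0.0227) and Golga3 (0.20, SE 0.07, adjusted p = 0.017) also passed the edgeR test. All 4 were also called in total RNA. The members' median was 0.15, beside −0.01 over all genes. Libraries did not overlap, with Pdx1 siRNA higher, for these 4, Trip11 and Uso1, as for 32.3% of all genes. Uso1 was at 0.15 (SE 0.08, adjusted p = 0.12), Trip11 at 0.11 (SE 0.20, adjusted p = 0.642) and Golga1 at 0.00 (SE 0.06, adjusted p = 0.965) by edgeR. The log2 values of Golga4 (−0.04, SE 0.09, adjusted p = 0.693) and Gcc2 (−0.11, SE 0.09, adjusted p = 0.276, edgeR) were below 0, where those in total RNA were 0.16.

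The calls in IP RNA rest on few libraries. Gcc1 kept its call whichever single library was left out, while 2 members in all were called without NT siRNA IP replicate 1 or Pdx1 siRNA IP replicate 1 (Golgb1 and Gcc1) and without NT siRNA IP replicate 2 or Pdx1 siRNA IP replicate 3 (Golga3 and Gcc1). With NT siRNA IP replicates 1 and 2 left out together, a setting in which the spread of the lone NT siRNA IP library is taken from the other groups, edgeR called 0 members, also at an unadjusted p of 0.05, and the median was 0.17.

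**Figure D4:**
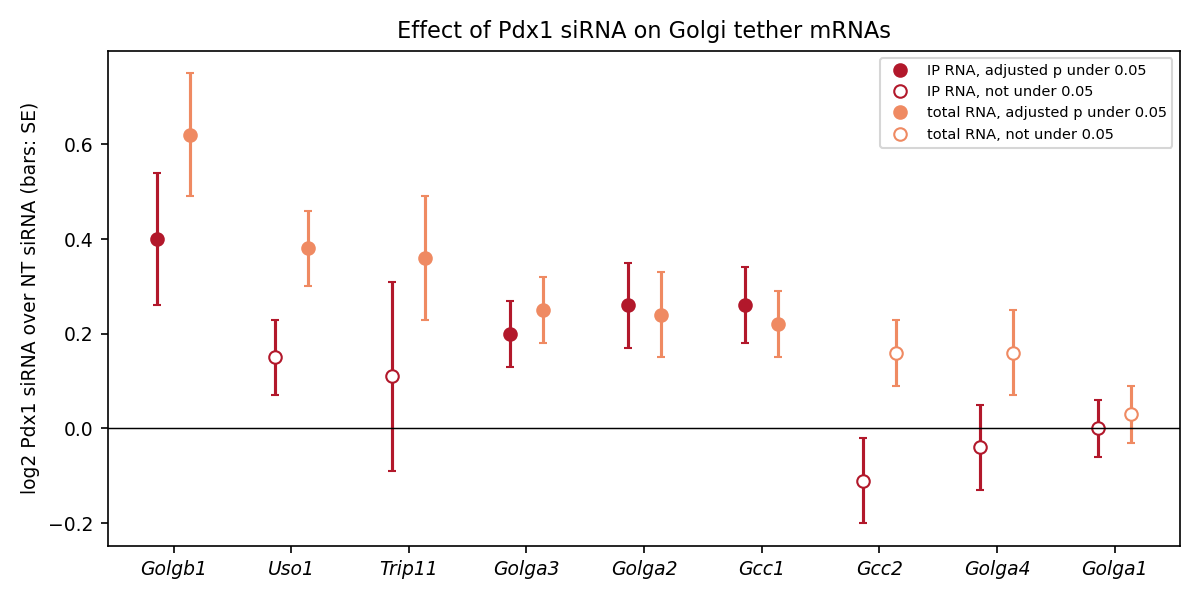
Log2 fold change of each tether, Pdx1 siRNA over NT siRNA, in IP RNA (dark) and total RNA (light), with SE as bars and filled points for an adjusted p under 0.05 by edgeR. Golgb1 has the highest value in both fractions, 0.40 in IP and 0.62 in total RNA, and Gcc2, Golga4 and Golga1 have open points in both.

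The change of the IP to total ratio between the siRNAs is built from the ratios the genes were chosen by, and is given as values only. It ran from −0.28 (Gcc2, SE 0.12) to 0.03 (Gcc1, SE 0.11), with a median of −0.20 over the members and 0.01 over all genes. Long genes had lower values in general, with a median of −0.12 over the coding genes of 8 kb or more and −0.25 over the other long coiled-coil proteins. The members' median was −0.09 with the length trend subtracted, −0.10 without Pdx1 siRNA total replicate 3 and −0.29 without Pdx1 siRNA total replicate 1. For Trip11 (−0.25, SE 0.24), Uso1 (−0.23, SE 0.12), Golgb1 (−0.22, SE 0.19) and Golga4 (−0.20, SE 0.12) the value was below 0, and for Golga3 (−0.04), Golga1 (−0.02) and Golga2 (0.02) it was near it.

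Markers of another islet cell type and of nuclei moved in the same siRNA comparison. Of 5 listed markers of other islet endocrine cells, Gcg and Ppy were measured, and the others were not analysed here. The summed level of Gcg and Ppy was 2880 to 3290 CPM in Pdx1 siRNA total and 751 to 785 CPM in NT siRNA total RNA, and 5250 to 5950 CPM in Pdx1 siRNA IP and 1490 to 1540 CPM in NT siRNA IP RNA. Nearly all of this was Gcg, the glucagon gene. The 4 measured nuclear RNAs summed to 1650 to 2190 CPM in Pdx1 siRNA total and 1030 to 1240 CPM in NT siRNA total RNA, and to 530 to 542 CPM in Pdx1 siRNA IP and 248 to 277 CPM in NT siRNA IP RNA. Most of that sum was Neat1 and Malat1. By edgeR 3 of the 4 were higher and 1 lower in each fraction, the lower one being Kcnq1ot1, which averaged 2.44 CPM in Pdx1 siRNA total and 4.66 CPM in NT siRNA total RNA (log2 fold change −0.94, adjusted p = 1.3e-04). Their part in the change of the tether mRNAs was not tested. In bulk RNA, fewer cells of a type and less RNA per cell cannot be told apart.

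In the other lists, the counts below stand beside shares over all genes of 23.8% higher and 29.2% lower in total RNA, and 29.2% higher and 30.4% lower in IP RNA. No list was tested as a group, and several counts are near these shares. Of 31 glycosylation enzymes, edgeR called 14 higher and 4 lower in total RNA, and 18 higher and 1 lower in IP RNA. Man1a, an enzyme that trims mannose from N-glycans, had log2 fold changes of 1.38 in total RNA (adjusted p = 3.2e-08) and 1.28 in IP RNA (adjusted p = 5.9e-08), and Mgat3, which adds the bisecting sugar of N-glycans, had 0.96 (adjusted p = 1.2e-07) and 1.12 (adjusted p = 1.7e-08, edgeR). The highest value among the tethers in total RNA was 0.62, that of Golgb1. Of 17 other golgins and structure proteins, 5 rose and 2 fell in total RNA, and 6 rose and 2 fell in IP RNA. They include Golim4 (0.49 in total RNA, adjusted p = 2.3e-04) and Gorasp1 (0.49, adjusted p = 3.2e-04, edgeR), which encodes the stacking protein that holds GM130, the product of Golga2. Of 29 subunits of multisubunit tethers, 4 rose and 5 fell in total RNA, and 3 rose and 7 fell in IP RNA. Zw10, which acts in vesicle tethering at the endoplasmic reticulum and at kinetochores, fell by 0.48 in total RNA (adjusted p = 2.0e-05, edgeR).

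Golgi GTPases and regulators gave 3 higher and 5 lower of 24 in total RNA and 9 higher and 4 lower in IP RNA. The smallest p in total RNA was that of Rab43 (−0.40, adjusted p = 3.2e-04, edgeR). Arfgap1, an activator of the GTPase cycle of Arf1, was at 0.29 (adjusted p = 0.00139), and Arf1 itself at −0.31 (adjusted p = 0.00216, edgeR). Of 15 Golgi SNAREs, 3 rose and 0 fell in total RNA, and 6 rose and 1 fell in IP RNA, led by Bet1l (0.44 in total RNA, adjusted p = 3.5e-04, edgeR). The other long coiled-coil proteins moved mostly downward, with 4 of 26 higher and 16 lower in total RNA and 3 higher and 20 lower in IP RNA, at medians of −0.29 and −0.64. The members of that list with the smallest p were Cenpe (−1.84 in total RNA, adjusted p = 8.2e-11), Cenpf (−1.90, adjusted p = 2.5e-10) and Cntrl (−1.40, adjusted p = 8.1e-10, edgeR), which encode 2 kinetochore proteins and a centriole protein of dividing cells.

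Across the 12 libraries the members followed each other to different degrees. The correlation of a member's log2 CPM with the mean of the other 8, both standardised, was highest for Golga3 (r = 0.984) and Golgb1 (0.979) and lowest for Gcc1 (0.734) and Golga2 (0.662), which are the members with the smallest gap between fractions. The genes outside the list most like the members' mean profile, out of 10138 genes averaging 5 CPM or more, were Ubr4 (r = 0.998), Igf2r (0.996), Creb3l2 (0.996), Unc79 (0.995) and Sez6l (0.995). Their log2 IP to total ratios were −1.78 to −1.33 with Pdx1 siRNA and −1.59 to −1.26 with NT siRNA, and their transcripts are 6.06 to 15.93 kb long. All these correlations share the division into IP and total libraries, and are given as a description.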

How the data were processed

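The authors deposited raw, unnormalized counts of reads per RefSeq transcript, 1 table for each of the 12 libraries. Per the submitters' processing notes, TopHat2, featureCounts and build mm10 were used; no versions are given there. Treatment of strand and of reads with several matches is not given in the sources used here. Of 17133 transcripts 16838 were matched to a symbol, and the other 295 (0.58% to 0.83% of counts) were left out. The transcript with the highest total stood for each gene, giving 12643 genes, 2634 of them with several transcripts. The 2 Golga2 transcripts have nearly equal counts. The lowest total over libraries was 141 counts, so genes below some minimum are not analysed here. Counting error is a lower limit, since PCR duplicates are counted.

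All 12 libraries entered a single edgeR 4.0.16 quasi-likelihood fit (R 4.3.3) with a mean per group and TMM scaling. The default filter removed 0 genes. TMM factors ran from 0.752 to 0.866 (Pdx1 siRNA IP), 0.95 to 1.066 (Pdx1 siRNA total), 0.984 to 1.011 (NT siRNA IP) and 1.22 to 1.231 (NT siRNA total), and all log2 values are relative to this scaling. Benjamini-Hochberg adjustment ran over all 12643 genes with 0.05 as the threshold, and adjusted p-values in the text come from this test. Levels between genes are compared per kb. Lengths, coding lengths and GC content came from GENCODE M21 models of GRCm38 for 12524 genes (99.1%). Trends were lowess fits with a span of 0.3 (statsmodels 0.14.6, Python 3.11.15). Copies of the members were sought among GENCODE M21 transcripts only, with minimap2 2.31 (alignments of at least 100 bases and 95% identity). Matches scoring far below the match of a transcript to itself were not reported, so copies near that length could be missed. The fit was also run on simulated counts drawn from its own estimates of spread, with far fewer changed genes than were called here. The outcome is not given and supports nothing about these data. Every pair of replicates differed by more than sampling noise, with a chi-square of 5.7 or more per degree of freedom.

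The members and all lists were chosen with earlier results of these data known. All members are named; of every other list, at most 3 genes per siRNA contrast were named, those of lowest p among the called, and the 5 genes most like the members by correlation. The nuclear RNAs and Rpl32l were given by library after their values were seen. Alternatives were the Wald test of DESeq2 1.42.0, RLE scaling, upper-quartile scaling, other filters on low counts, summed transcripts, a block for replicate number, omission of Ins1 and Ins2, the compared libraries alone, single libraries left out, NT siRNA IP replicates 1 and 2 left out together, and trends on length subtracted. Trends on GC content were added after seeing the data.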

Additional observations from a re-analysis of the deposited data

How the results depend on the processing

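Subtracting the length trend moved the members' median IP to total ratio to −0.39 with Pdx1 siRNA and −0.43 with NT siRNA, the GC trend to −0.58 and −0.65, and both in turn to −0.29 and −0.41. With length, and with length and then GC, removed, these ratios changed sign: Gcc1 (0.24 and 0.23 with Pdx1 siRNA, 0.16 and 0.14 with NT siRNA), Golga3 (0.09 and 0.18, 0.03 and 0.05), Golga2 (0.19 and 0.12, 0.13 and 0.10) and Uso1 with NT siRNA (0.03 and 0.05). The median change of the ratio was −0.09 and −0.06 under these settings, and −0.29 to −0.10 without single libraries. The number of members called in total RNA was 3 to 7 without single libraries. Gcc2 passed there with DESeq2 (adjusted p = 0.0492), RLE (0.0491), upper-quartile scaling (0.0301) and without NT siRNA total replicate 2 (0.0185), and Trip11 did not with only the compared libraries (0.0573). The number called in IP RNA was 2 to 4 without single libraries, and 0 with NT siRNA IP replicates 1 and 2 left out, where 4900 genes were called in place of 7542. The IP median was 0.22 with the GC trend, 0.18 with the length trend and 0.25 with both subtracted, 0.17 without those replicates and 0.12 to 0.19 without single libraries. The value of Golga1 in IP RNA, near 0, changed sign in 5 settings: 0.00 without Ins1 and Ins2 and with only the compared libraries, −0.03 without NT siRNA IP replicates 1 and 2, and −0.04 to 0.02 over the settings without single libraries. DESeq2 called 7 members in total and 4 in IP RNA. Libraries of the same replicate number deviated together in some pairs and not in others. Between siRNAs r was −0.066 to 0.620 in total RNA and 0.027 to 0.122 in IP RNA. Between IP and total RNA it was −0.09 to 0.703 with Pdx1 siRNA and 0.058 to 0.321 with NT siRNA. Total libraries of unlike number gave −0.661 to 0.366 between siRNAs. The labels do not say that a number marks a shared culture, so the main fit used no pairing. With the replicate number as a block, 7 members were called in total RNA (Gcc2 added, adjusted p = 0.0465) and 4 in IP RNA, with medians of 0.24 and 0.15, and the median ratios were −0.82 with Pdx1 siRNA, −0.80 with NT siRNA and −0.20 for their change. Trip11 in IP RNA, at 79 to 122 counts per library, has the fewest reads and the largest SE (0.20).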
